A study of Homo sapiens with 23 samples.

Results

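AUTS2, MSI2 and LRFN2 lie in 3 stretches of the human genome in which LSD1 peaks stood close together. The AUTS2 window runs from 69.00 to 70.32 Mb of chromosome 7 (1.32 Mb), the MSI2 window from 55.28 to 55.81 Mb of chromosome 17 (0.53 Mb) and the LRFN2 window from 40.30 to 40.61 Mb of chromosome 6 (0.31 Mb), all in the hg19 build. The windows were chosen by the density of LSD1 peaks in control cells at day 3, and every peak that overlapped a window was taken as a member. This gave 157 of the 52708 peaks of 5 lists, 81 at AUTS2, 64 at MSI2 and 12 at LRFN2. Because LSD1 peaks of day 3 chose the windows, their number, spacing and size there are a description, and so is every comparison that has that list on one side.

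The study profiled binding by ChIP-seq, which sequences the DNA fragments that an antibody pulls down from fixed chromatin, in SH-SY5Y, an established neuroblastoma line of human origin that can be matured toward neurons in culture. Of its 23 samples, 14 are ChIP and 9 are input chromatin, and 5 ChIP libraries have a peak list used here. Per the labels' protocols, cells were kept in 10 µM retinoic acid for 4 days and then in 50 ng/mL BDNF, a neuronal growth factor, without serum for 3 days. Day 0 and day 3 count from the addition of BDNF. All cells were infected with an shRNA. The 5 groups are SVIL in control shRNA cells at day 3, LSD1+8a in control shRNA cells at day 3, LSD1 in control shRNA cells at day 3, LSD1 in LSD1+8a shRNA cells (below, knockdown cells) at day 0, and LSD1 in control shRNA cells at day 0. In that order the lists held 1452, 3378, 20748, 10248 and 16882 peaks, of which 5, 16, 81, 13 and 42 lay in the windows.

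LSD1, also named KDM1A, is a demethylase that removes methyl groups from histone lysines and works in complexes with the corepressor CoREST. LSD1+8a is its splice form with an additional short exon, found in neurons, and the series design names SVIL (supervillin, an actin-binding protein) as the cofactor of LSD1+8a. AUTS2 encodes a nuclear protein of neuronal development that acts with a Polycomb complex and is linked to autism and intellectual disability. MSI2 (Musashi RNA binding protein 2) binds mRNAs in stem and progenitor cells, and LRFN2 encodes a synaptic adhesion molecule that associates with NMDA-type glutamate receptors.

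With a single library in each group, differences could not be set against a spread between replicates, and no test was run. Intervals in parentheses are 95% intervals, exact Poisson for numbers of peaks, exact binomial for shares, conditional exact binomial for ratios of peak numbers and from order statistics for medians. They cover counting error only, and neighbouring peaks are not independent. The number of reads per library is unknown, so fewer peaks or tags and a shallower library cannot be told apart. Tags are the deposited, unnormalized number of reads in a peak, and the fold enrichment and score of a peak are the authors' values. The SVIL list began at a score of 71.7 and the others at 50.0, so their lengths do not follow from the same cut-off. The labels do not state if the antibody to LSD1 recognises the 8a form as well. Whether a peak lies in an exon, an intron or a promoter is not given, because no hg19 annotation was used here. In a RefSeq gene table of GRCh38.p14, used for names only, no other protein-coding gene overlaps AUTS2, MSI2 or LRFN2.

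The windows were rich in LSD1 peaks on day 3, and the same stretches differed from each other on day 0. At AUTS2, there were 1 SVIL, 7 LSD1+8a and 45 LSD1 peaks at day 3, and 7 LSD1 peaks in knockdown and 21 in control cells at day 0. At MSI2, the same lists held 3, 8, 26, 6 and 21 peaks. At LRFN2, they held 1, 1 and 10 peaks at day 3, and neither day 0 list held any. AUTS2 and MSI2 thus carried LSD1 peaks on both days, and LRFN2 on day 3 only in these lists.

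Per 100 kb, AUTS2 had 3.41 LSD1 peaks at day 3 (2.49 to 4.56), MSI2 had 4.91 (3.20 to 7.19) and LRFN2 had 3.23 (1.55 to 5.93), against 0.710 over the whole list. The chromosomes that hold them had 0.844, 0.987 and 0.682 peaks per 100 kb, for 7, 17 and 6. The intervals of the 3 windows overlap, so their order at day 3 is within counting error. In the list of control cells at day 0, which did not choose the windows, AUTS2 had 1.59 peaks per 100 kb (0.985 to 2.43) and MSI2 had 3.96 (2.45 to 6.06), against 0.576 over that list. In knockdown cells at day 0, the densities were 0.530 (0.213 to 1.09) at AUTS2 and 1.13 (0.415 to 2.46) at MSI2, against 0.350 over that list. Of these 4 day 0 intervals, that of AUTS2 in knockdown cells holds the density of its list and the other 3 lie above theirs. Against their own chromosomes, with 0.701 and 1.03 peaks per 100 kb for 7 and 17 in control cells, AUTS2 and MSI2 still lie above. In knockdown cells chromosome 17 had 0.677, which the MSI2 interval holds, and chromosome 7 had 0.420. At LRFN2 the 0 peaks of either day 0 list have an interval up to 1.19 per 100 kb, which holds the density of both lists.

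LSD1+8a peaks were dense at AUTS2 and MSI2 too. They came to 0.530 per 100 kb (0.213 to 1.09) at AUTS2, 1.51 (0.652 to 2.97) at MSI2 and 0.323 (0.00817 to 1.80) at LRFN2, against 0.116 over the list. SVIL had 0.0758 (0.00192 to 0.422), 0.566 (0.117 to 1.65) and 0.323 (0.00817 to 1.80) peaks per 100 kb in these windows, against 0.0521 over its list. The list-wide density lies below the interval for LSD1+8a at AUTS2 and MSI2 and for SVIL at MSI2, and within it for the rest, where 1 peak is all there was. Chromosome 17 had 0.128 SVIL peaks per 100 kb, which the MSI2 interval holds, so SVIL at MSI2 is within counting error of its chromosome. For LSD1+8a, chromosomes 7 and 17 had 0.169 and 0.268, below the intervals of AUTS2 and MSI2. Among the 1452 LSD1+8a peaks with the highest scores, AUTS2 had 0.0758 per 100 kb, which is 1 peak, and MSI2 had 0.566. The density over those peaks was 0.0499, so an excess at AUTS2 is not shown among them.

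**Figure D1:**
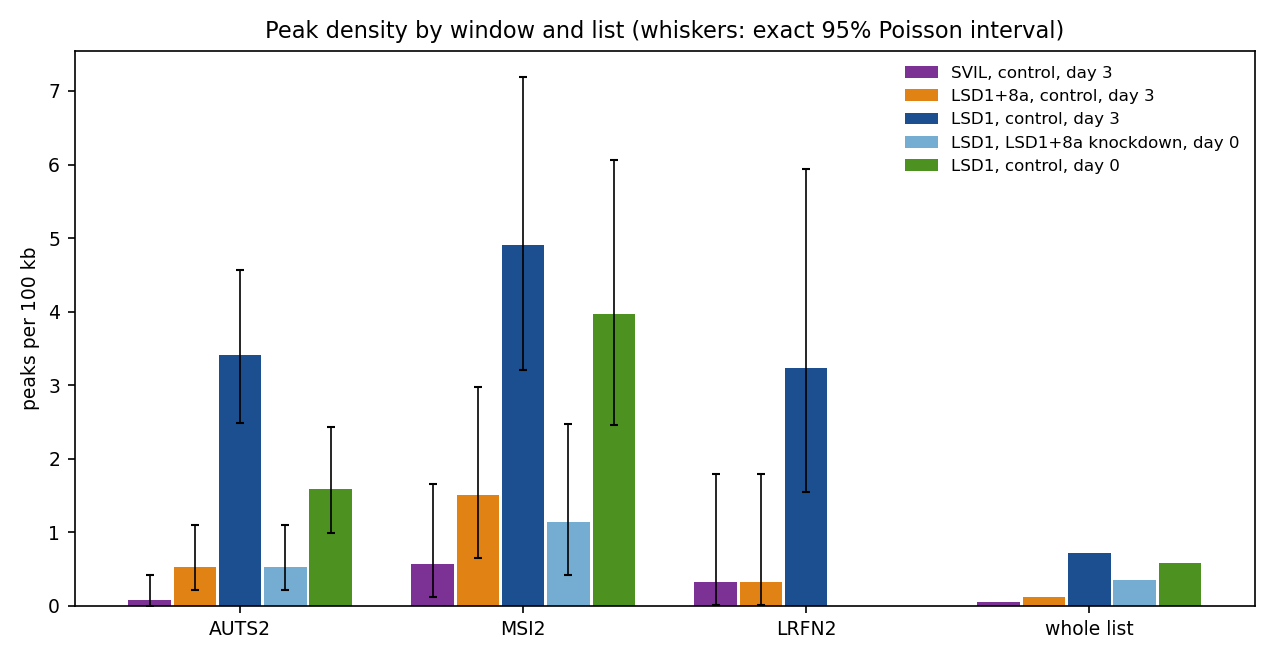
Peaks per 100 kb in each window and over the whole list, for the 5 peak lists, with bars for the density and whiskers for its exact 95% Poisson interval in the windows. The LSD1 bars of day 3 reach 3.41, 4.91 and 3.23 peaks per 100 kb for AUTS2, MSI2 and LRFN2, against 0.710 over the list, and LRFN2 has no bar for day 0.

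The edges of the windows were not alike. On day 3 the AUTS2 window held 45 LSD1 peaks, the equally long stretch before it 16 and the one after it 1. At MSI2 the window held 26, the stretch before it 4 and the one after it 10. At LRFN2 the window held 10, the stretch before it 1 and the one after it also 10. In the stretch after the window this is 0.0758 peaks per 100 kb at AUTS2, 1.89 at MSI2 and 3.23 at LRFN2, against 0.710 over the list. A density above that of the list thus ran on past the upper edge at MSI2 and LRFN2. At AUTS2 it ended before the edge, as the last 120 kb of the window held no summit. In control cells at day 0 the numbers were 21 in the window, 10 before and 1 after for AUTS2, and 21, 6 and 7 for MSI2. The LRFN2 window and the stretch before it had none, and the stretch after it had 3, so the absence of day 0 peaks did not reach beyond the window on that side. In the gene table the neighbours are SPDYE21 and GALNT17 for AUTS2, AKAP1 and CCDC182 for MSI2, and MOCS1 and UNC5CL for LRFN2.

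**Figure D2:**
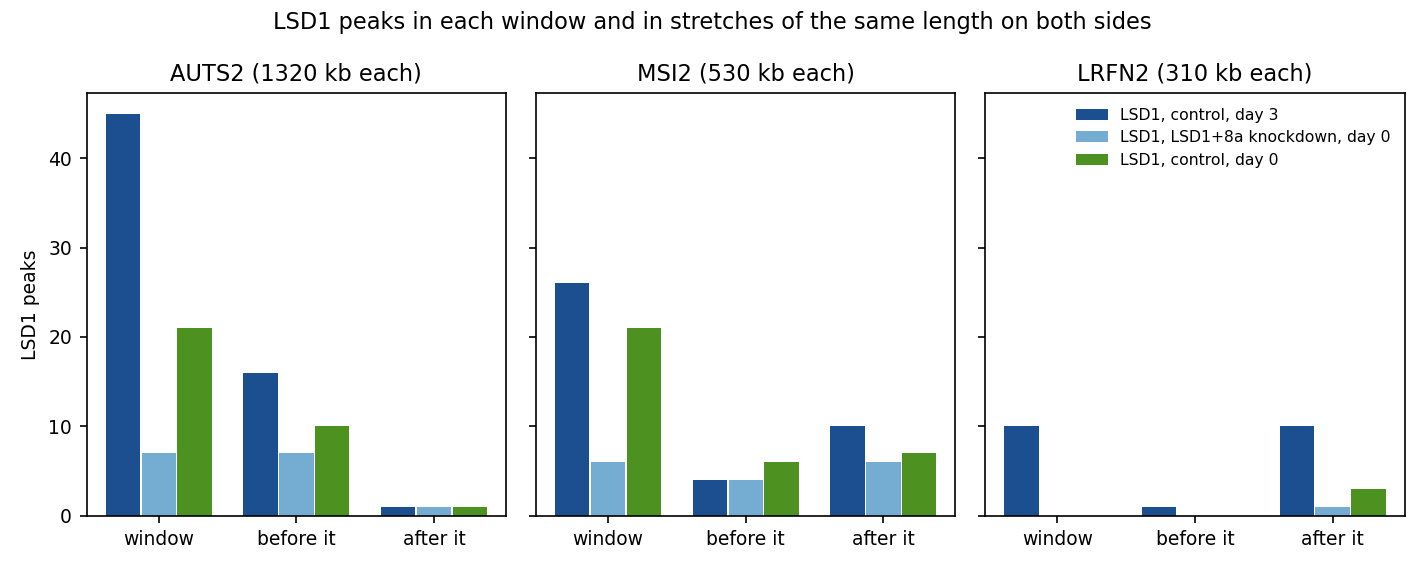
Number of LSD1 peaks (bars, 1 per LSD1 list) in each window and in the equally long stretches before and after it. At AUTS2, day 3 has 45 peaks in the window, 16 before and 1 after, while at LRFN2 the window and the stretch after it hold 10 each.

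LSD1 summits of day 3 had close neighbours in the windows. There the median distance was 27.1 kb at AUTS2 (14.6 to 30.7), 14.2 kb at MSI2 (6.88 to 17.6) and 11.3 kb at LRFN2 (2.66 to 63.4), against 56.7 kb outside the windows, which the LRFN2 interval holds. Gaps ran between 2.00 and 66.5 kb at AUTS2, 1.91 and 65.5 kb at MSI2, and 1.81 and 70.2 kb at LRFN2. At most 25 kb separated 20 of 44 neighbours at AUTS2, 21 of 25 at MSI2 and 6 of 9 at LRFN2, against 31.02% of neighbours outside. The median spacing was thus wider at AUTS2 than at MSI2, though their intervals overlap and this list chose the windows. In control cells at day 0 the medians were 38.4 kb (23.3 to 83.1) at AUTS2 and 17.6 kb (4.60 to 22.8) at MSI2, against 69.1 kb outside.

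The median LSD1 peak of day 3 was longer in all 3 windows than outside them, with only 10 peaks at LRFN2. The median length at day 3 was 1428 bp at AUTS2 (1228 to 1620), 2003 bp at MSI2 (1505 to 2617) and 1246 bp at LRFN2 (1113 to 1831), against 1043 bp outside the windows. The peaks covered 68.7 kb (5.21%) of AUTS2, 55.1 kb (10.4%) of MSI2 and 14.1 kb (4.56%) of LRFN2, against 0.823% over the list. Lengths at or above 1351 bp, the upper quartile of the list, were found for 25 of 45 peaks at AUTS2, 20 of 26 at MSI2 and 4 of 10 at LRFN2, against 25.0% of the list. The lists of day 0 went the same way, with median lengths of 1035 bp (861 to 1191) and 1168 bp (1019 to 1531) at AUTS2 and MSI2 in control cells, against 834 bp outside. In knockdown cells they were 923 bp (693 to 1167) and 1085.5 bp (658 to 1688), against 769 bp outside, which both intervals hold.

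At AUTS2 and MSI2 the same peaks carried more tags, at a fold enrichment no higher than elsewhere. The median number of tags per LSD1 peak at day 3 was 76 at AUTS2 (64 to 95), 110 at MSI2 (90 to 157) and 50.5 at LRFN2 (43 to 114), against 50 outside the windows. At or above the upper quartile of 74 tags lay 24 of 45, 22 of 26 and 3 of 10 peaks, against 25.2% of the list. The median fold enrichment was 12.9 (11.6 to 17.1) at AUTS2, 13.7 (11.4 to 17.3) at MSI2 and 14.4 (11.2 to 19.1) at LRFN2, against 17.05 outside, which the intervals reach or hold. At or below the lower quartile of 13.3 lay 25 of 45, 12 of 26 and 2 of 10 peaks, against 25.0% of the list. In score, LSD1 peaks of the windows were middling, with a median percentile in their list of 52.6 at AUTS2, 61.7 at MSI2 and 38.1 at LRFN2. The windows were thus dense in peaks of ordinary score. Tags per kb of peak came to a median of 53.9 at AUTS2 and 54.4 at MSI2, against 46.0 outside, so their tags exceeded the rest by less per kb than per peak.

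Lists that did not choose the windows gave medians in the same direction. In control cells at day 0, LSD1 peaks had a median of 36 tags (26 to 44) at AUTS2 and 41 (29 to 59) at MSI2, against 26 outside. Their median folds were 6.88 (5.86 to 9.77) and 6.85 (5.53 to 7.68), against 9.325, which the AUTS2 interval holds. In knockdown cells the median was 33 tags (28 to 37) at AUTS2 and 44 (30 to 69) at MSI2, against 28 outside. LSD1+8a peaks had medians of 48 tags (33 to 69) at AUTS2 and 58.5 (38 to 92) at MSI2, against 38 outside. The tag intervals touch or hold the outside median for LSD1 at AUTS2 in both day 0 lists and for LSD1+8a in both windows. The excess of tags is within counting error there, as is the lower fold at AUTS2 in control cells.

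**Figure D3:**
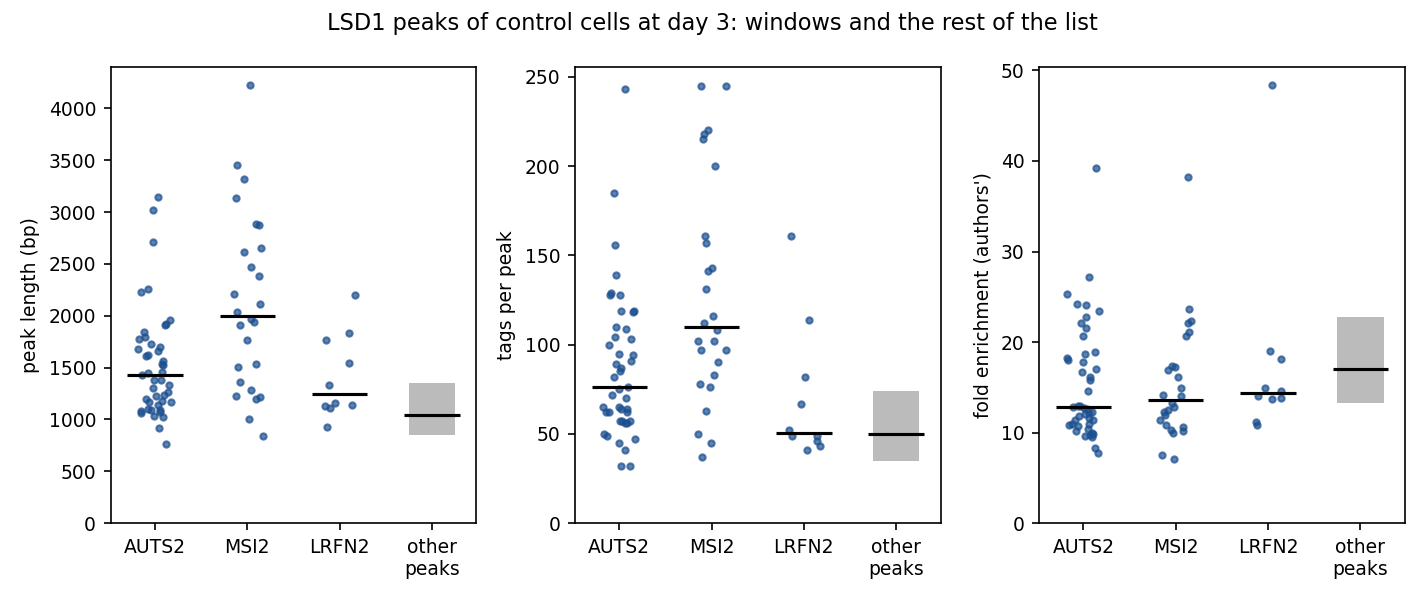
Length in bp, tags and the authors' fold enrichment of each LSD1 peak of control cells at day 3 (points) with the median (line), beside the median and quartiles (grey box) of the rest of that list. Median lengths were 1428, 2003 and 1246 bp at AUTS2, MSI2 and LRFN2, against 1043 bp for the rest, while their median folds of 12.9, 13.7 and 14.4 lie below 17.05.

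The series design follows maturation under BDNF, for which LSD1 in control cells is listed on both days. AUTS2 had 2.14 times as many peaks at day 3 (1.25 to 3.79), MSI2 1.24 times as many (0.670 to 2.31), and the whole list 1.23 times as many (1.20 to 1.25). The MSI2 ratio was close to that of the list. The AUTS2 interval began just above the ratio of the list and met the interval of the list. Since day 3 peaks chose the windows, that choice favours ratios above the list. A gain at AUTS2 beyond that of the list is therefore not shown. The day 3 libraries carry no library number in their titles while the day 0 libraries do, and the input behind each list is unknown, so batch, input and day cannot be told apart.

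Most day 0 peaks of the windows were still listed on day 3. Of the control peaks of day 0, 17 of 21 at AUTS2 and 17 of 21 at MSI2 overlapped a day 3 peak by at least 1 bp, together 34 of 42 (81.0%, 65.9 to 91.4), against 50.1% over the list. Day 3 peaks covered more of these windows than of the genome, as given above, and the part of this in the overlap was not tested. In the other direction, 16 of 45 day 3 peaks at AUTS2 (35.6%, 21.9 to 51.2), 15 of 26 at MSI2 (57.7%, 36.9 to 76.6) and 0 of 10 at LRFN2 overlapped a day 0 peak, together 31 of 81 (38.3%, 27.7 to 49.7), against 40.1% over the list. That share is near the background, while the background of the first direction lies below its interval. The first direction counts overlaps with the day 3 list, whose density chose the windows. A high share was thus favoured in advance, and it is a description. Where day 3 and day 0 peaks met, the median distance between their summits was 104 bp at AUTS2 and 42 bp at MSI2, against 68 bp over the list.

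Day 3 peaks that stood on a day 0 peak had more tags, in the windows as in the whole list. At AUTS2 the 16 such peaks had a median of 103.5 tags and the 29 others 65, and at MSI2 the 15 such peaks had 157 and the 11 others 97. Over the windows the medians were 119 tags for 31 peaks and 69.5 for 50, and 1762 and 1374 bp in length. Over the whole list they were 64 tags for 8320 peaks and 43 for 12428, and 1176 and 973 bp, so the difference is not one of the windows alone. By score, 22 of 44 window peaks in the upper 50% of the list met a day 0 peak and 9 of 37 in the lower 50%, against 50.5% and 29.7% over the list.

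The design also asks what loss of LSD1+8a does to LSD1 binding, for which the day 0 lists serve. AUTS2 had 7 peaks in knockdown cells and 21 in control cells, a ratio of 0.333 (0.120 to 0.814), and MSI2 had 6 and 21, a ratio of 0.286 (0.0944 to 0.732). The whole lists gave 0.607 (0.592 to 0.622), which lies within both intervals. Nearly all knockdown peaks of the windows were listed in control cells, with 6 of 7 at AUTS2 and 6 of 6 at MSI2, together 12 of 13 (92.3%, 64.0 to 99.8), against 69.4% over the list. The exception was at AUTS2, chr7:70158252-70159166, with 32 tags. Of the control peaks, 6 of 21 at AUTS2 and 7 of 21 at MSI2 overlapped a knockdown peak, together 13 of 42 (30.95%, 17.6 to 47.1), against 42.1% over the list. The interval of the joint share holds that of the list in both directions, so neither can be told from the background. The extent of the knockdown is not measured in these lists.

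A further question of the design is how the neuronal form compares with LSD1 on day 3. LSD1+8a peaks numbered 0.156 times the LSD1 peaks at AUTS2 (0.0592 to 0.347), 0.308 times at MSI2 (0.120 to 0.700) and 0.1 times at LRFN2 (0.00230 to 0.703), and 0.163 times over the lists (0.157 to 0.169), which each interval holds. Of the LSD1+8a peaks, 5 of 7 at AUTS2, 5 of 8 at MSI2 and 1 of 1 at LRFN2 stood on an LSD1 peak of the same day, together 11 of 16 (68.8%, 41.3 to 89.0), against 59.6% over the list. Conversely 11 of 81 LSD1 peaks (13.6%, 6.98 to 23) stood on an LSD1+8a peak, against 9.69% over the list. Both shares are near the background.

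Few LSD1+8a peaks of the windows met an LSD1 peak of day 0. In control cells this was 3 of 7 at AUTS2, 1 of 8 at MSI2 and 0 of 1 at LRFN2, together 4 of 16 (25%, 7.27 to 52.4), against 60.9% over the list, which lies outside the interval. By window, it lies outside the interval of MSI2 (0.316 to 52.7) and within those of AUTS2 (9.90 to 81.6) and LRFN2 (0 to 97.5). No alternative setting was run for the share of LSD1+8a peaks on day 0 LSD1 peaks. The share of LSD1 peaks of day 3 that overlapped a knockdown peak of day 0 was 11 of 81 (13.6%, 6.98 to 23), against 22.2% over the list, which the interval holds. There were 6 of these at AUTS2, 5 at MSI2 and 0 at LRFN2.

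Of the 5 SVIL peaks of the windows, 4 met an LSD1 peak of day 3 and none met LSD1+8a. On LSD1 peaks of day 3 stood 1 of 1 at AUTS2, 2 of 3 at MSI2 and 1 of 1 at LRFN2, together 4 of 5 (80.0%, 28.4 to 99.5), against 58.7% over the list. On LSD1+8a peaks stood 0 of 5 (0 to 52.2%), against 18.6% over the list. Of the LSD1 peaks, 4 of 81 (4.94%, 1.36 to 12.2) stood on a SVIL peak, against 3.97% over the list. With 5 peaks, none of these shares can be told from the background.

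**Figure D4:**
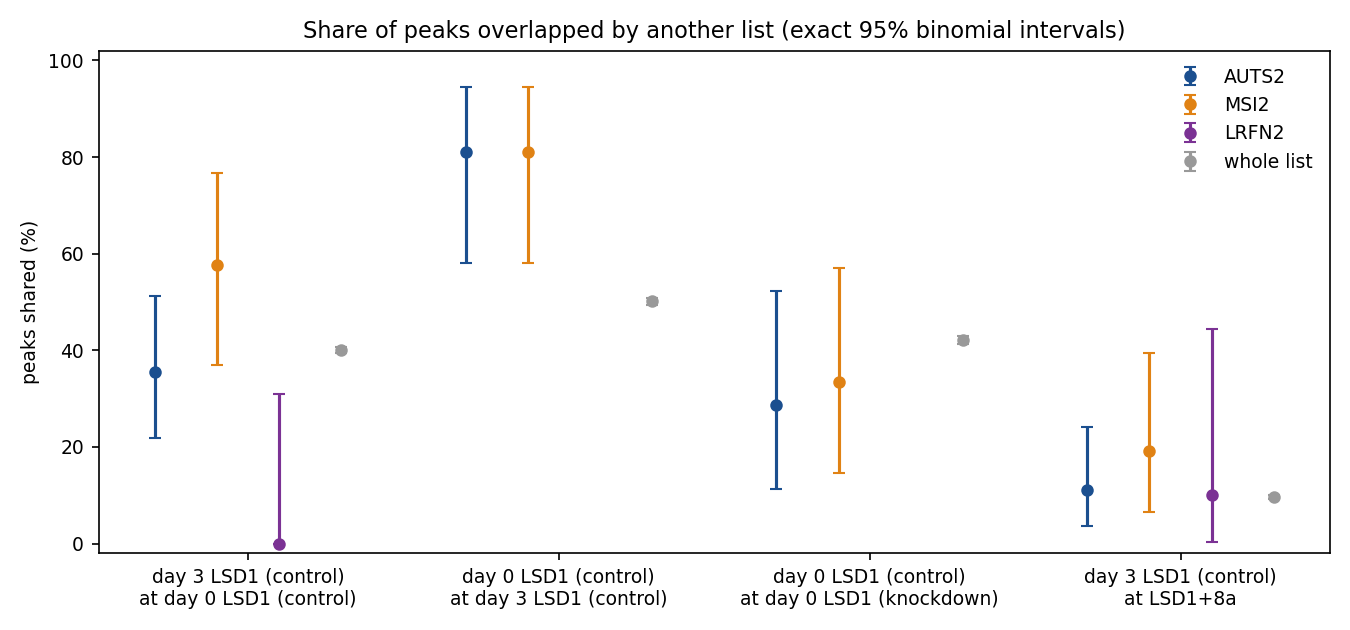
Percent of LSD1 peaks of one list that overlap a peak of another by at least 1 bp (points), by locus and over the whole list, with exact 95% binomial intervals as whiskers. Day 0 peaks of control cells at day 3 peaks stand at 81.0% for AUTS2 and for MSI2, against 50.1% over the list, and LRFN2 stands at 0% for day 3 peaks at day 0 peaks, against 40.1%.

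When peaks of all lists were merged where they overlapped, the windows held 95 regions, 51 at AUTS2, 34 at MSI2 and 10 at LRFN2. Of these, 54 were in 1 list, 26 in 2, 12 in 3, 3 in 4 and none in all 5. LSD1 at day 3 alone accounted for 42 regions, 26 at AUTS2, 8 at MSI2 and 8 at LRFN2. All 3 LSD1 lists shared 11 regions, 6 at AUTS2 and 5 at MSI2. LSD1 at day 0 without day 3 had 9 regions, 5 at AUTS2 and 4 at MSI2. LSD1+8a overlapped no peak of any LSD1 list at 4 regions, 1 at AUTS2 and 3 at MSI2, though an LSD1 peak could lie close by.

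At AUTS2, LSD1 peaks of day 3 ran along the first 1.2 Mb of the window and were absent from the last 120 kb, where no list had a summit. In 100 kb steps from the window start there were 4, 2, 6, 5, 2, 4, 2, 4, 3, 5, 5 and 3 LSD1 summits at day 3. Control cells at day 0 had 1, 1, 5, 5, 0, 2, 0, 2, 1, 1, 2 and 1 in the same steps. Between 200 and 400 kb the numbers were close, with 11 summits at day 3 and 10 at day 0, but the sites differed. There, 6 of the 11 day 3 peaks met no control peak of day 0, and 4 of the 10 control peaks met no day 3 peak. These 4 were all the control peaks of AUTS2 at day 0 that had no day 3 peak. LSD1+8a had 4 of its 7 peaks in that same stretch.

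The AUTS2 peak with the highest score and the greatest length was chr7:69327214-69330360. It spans 3147 bp and had 243 tags at a fold of 24.2 at day 3, ranking 402 in its list. In knockdown cells at day 0 it met 1 peak of 33 tags, and in control cells 2 peaks of 55 and 43 tags. It was the tallest of a run of 7 day 3 peaks, each within 25 kb of the next, over 67.3 kb (chr7:69282770-69350077). In that run the day 3 lists held 2 LSD1+8a peaks, and those of day 0 held 2 LSD1 peaks in knockdown and 4 in control cells.

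The second by score, chr7:69841166-69842254, had 110 tags at a fold of 39.3 and met an LSD1+8a peak of 33 tags. No day 0 list held it. The third, chr7:69763151-69764922, had 156 tags at day 3 and met a peak of 44 tags in control cells at day 0. High scores at AUTS2 thus came with and without a peak on day 0.

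A pair of AUTS2 regions was shared by 4 lists. At chr7:69399033-69400251, LSD1+8a had 60 tags and LSD1 had 100 at day 3, and LSD1 had 34 in knockdown and 36 in control cells at day 0. At chr7:70079332-70080482 these were 40, 64, 28 and 38 tags. SVIL was missing from both. Knockdown and control cells were within 10 tags of each other at each. As tags are unnormalized and depth is unknown, this does not show that binding was equal.

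The LSD1+8a peak of AUTS2 with the highest score, chr7:70021603-70023510, had 69 tags and met an LSD1 peak of 64 tags at day 3 and none at day 0. The SVIL peak of AUTS2, chr7:69204872-69205244, had 24 tags and met LSD1 peaks of 119 tags at day 3 and 46 in control cells at day 0. Its summit at 69205092 and that of LSD1 at day 3, at 69205102, nearly coincide.

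**Figure D5:**
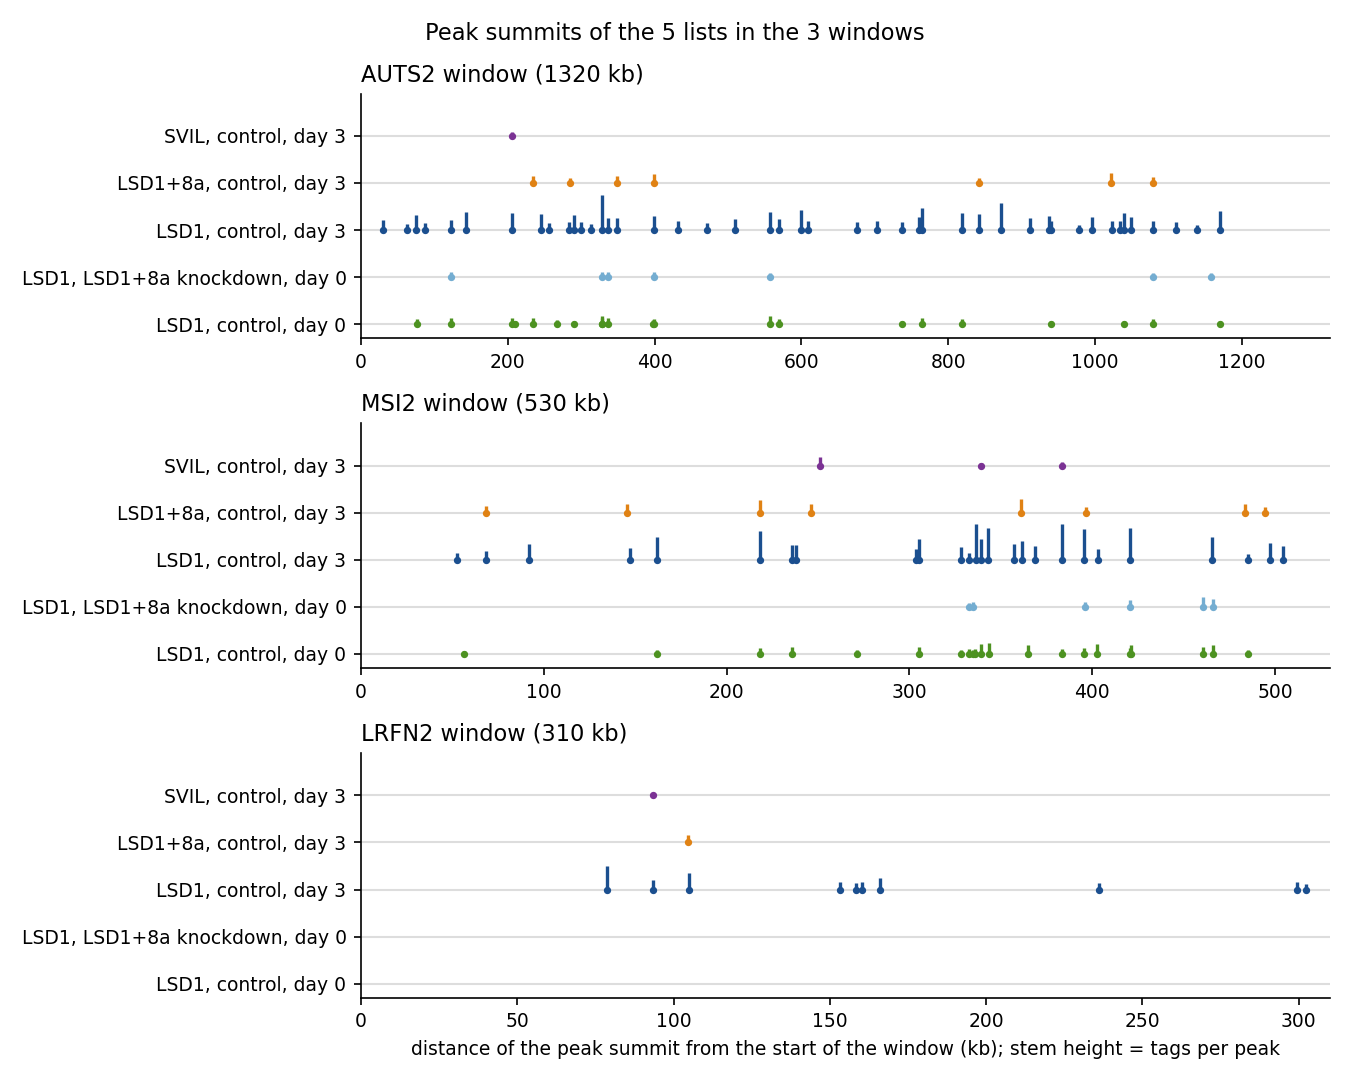
Peaks of the 5 lists along each window, in kb from the window start, with stems as tall as the tags of each peak, up to 245 for LSD1 at day 3. LSD1 peaks of day 3 crowd the stretch from 300 to 400 kb of MSI2 (12 summits), run along AUTS2 up to 1200 kb, and stand alone with 1 LSD1+8a and 1 SVIL peak at LRFN2.

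At MSI2, more of the LSD1 peaks than not lay in 1 stretch on both days. A run of 14 day 3 peaks, chr17:55583131-55702390, covered 119 kb and 2057 tags. In control cells at day 0 a run of 13 peaks, chr17:55584887-55702591, took up 118 kb and 621 tags. Outside these runs lay 12 of 26 peaks at day 3 and 8 of 21 at day 0, some of them in shorter runs. Inside the day 3 run, the other lists held 2 SVIL, 2 LSD1+8a and 4 knockdown LSD1 peaks. Between 300 and 400 kb of the window there were 12 summits at day 3 and 10 in control cells at day 0. Over the genome cut into 100 kb bins, the bin from 55.6 to 55.7 Mb of chromosome 17 was the one with the most LSD1 summits at day 3, with 11. It was the only bin of 30427 with that many, which is a description, since day 3 density chose the window.

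The MSI2 peak with the highest score, chr17:55497398-55499159, lay outside that run, ranked 189 in its list and had 200 tags at a fold of 38.2. LSD1+8a had 90 tags there (chr17:55497685-55499234), the LSD1+8a peak of MSI2 with the highest score. Control cells at day 0 had an LSD1 peak of 44 tags, and knockdown cells had none listed.

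The next by score, chr17:55674865-55677520, was the MSI2 region shared by 4 lists. LSD1+8a had 38 tags and LSD1 had 215 at day 3, and LSD1 had 31 in knockdown and 39 in control cells at day 0. The third, chr17:55699515-55702390, had 218 tags at day 3. It met a knockdown peak of 51 tags and control peaks of 41 and 62 tags at day 0. The longest, chr17:55660781-55665010, spans 4230 bp and had 245 tags at a fold of 11.4. It met a SVIL peak of 25 tags (chr17:55663236-55663651) and a control peak of 37 tags at day 0. The third and the longest peak, though wide, had folds below the median of 17.05 outside the windows.

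MSI2 also held peaks of the other proteins that overlapped no LSD1 peak. LSD1+8a had 40 tags at chr17:55774175-55774952 and 58 at chr17:55525263-55526597, and no LSD1 peak of any list overlapped either. The first was not distant from LSD1, as a day 3 LSD1 peak of 116 tags followed at chr17:55776730-55778018. SVIL had its strongest peak of the windows at chr17:55530767-55531278, with 57 tags at a fold of 21.1 and rank 81 in its list, and no other list had a peak there. A weaker SVIL peak of 17 tags, chr17:55619178-55619482, met LSD1 peaks of 143 tags at day 3 and 66 in control cells at day 0.

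At LRFN2, LSD1 was listed on day 3 only. The peak with the highest score, chr6:40404293-40405839, had 114 tags at a fold of 48.4, the highest fold among the 81 LSD1 peaks of the windows at day 3, and ranked 413. LSD1+8a had its only LRFN2 peak on it, chr6:40404328-40405314, with 52 tags at a fold of 28.5. That peak ranked 203 in the LSD1+8a list, above every other LSD1+8a peak of the windows. The summits of LSD1+8a and LSD1, at 40404781 and 40404804, lay close together.

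The longest LRFN2 peak, chr6:40378143-40380338, spans 2196 bp and had 161 tags, and the third by score, chr6:40465549-40466882, had 82. Neither met a peak in another list. The last of these closes a run of 4 day 3 peaks over 14.2 kb, chr6:40452648-40466882, in which no other list had a peak. SVIL had 14 tags at chr6:40393313-40393516, on an LSD1 peak of 67 tags at day 3. The lack of day 0 peaks at LRFN2 is common for a stretch of this length. Of 9789 such stretches over the rest of the genome, 5025 held no LSD1 peak in knockdown cells and 3837 none in control cells at day 0.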

How the data were processed

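Peak lists of 5 ChIP-seq libraries, 1 per group, were analysed. Fixation was in 1% formaldehyde for 10 minutes, per the labels' protocols, fragments of 300 to 600 bp were selected, and 50 bp single-end reads were made, so a summit is placed only as finely as these fragments allow. The tools Bowtie 1.0.0 and CASAVA and the builds hg19 and mm9 appear in the submitters' processing notes, and the lists, which hold chromosomes that mice lack, were taken as hg19. Peak caller, threshold, input library and sequencing depth were not given in the sources used here. Tags, as deposited, are a whole-number count per peak that was not normalized. Fold enrichment, as deposited, is a ratio whose denominator the file headers do not name. The deposited score, whose column name is lost in the file header, ranked peaks within a list.

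Groups came from titles and labels. Members were all peaks overlapping a window. Densities are per window length or per span between a list's first and last peak on each chromosome. Overlap means at least 1 bp, a run has gaps of at most 25 kb between summits, and windows count peaks by overlap and bins by summit. Named peaks are, per window, the 3 LSD1 peaks of day 3 with the highest score and the longest one, the LSD1+8a and SVIL peaks (the 3 with the highest score where there are more than 6), and regions in at least 4 lists; other peaks were named after their values were seen. The members and lists were chosen with earlier results of these data known. Functions were tested on simulated data. Alternatives were summits inside the window, windows shortened by 50 kb at each end, only the upper 50% by score, the 1452 top-scoring peaks of each, merging within 1 kb, a 50% reciprocal overlap and edges at most 1 kb apart. Applying the lowest SVIL score to all lists was added after the data were seen. No sequence is printed, since none of the build was used here. Python 3.11.15, numpy 2.4.6, pandas 2.3.3, scipy 1.17.1 and matplotlib 3.10.9 were used.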

Additional observations from a re-analysis of the deposited data

How the results depend on the processing

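Of 74 alternatives to the 16 main results, 62 left the value within its interval and 12 moved it, 10 of them down. With the upper 50% of each list by score, LSD1 at day 3 had 1.82, 3.02 and 1.29 peaks per 100 kb at AUTS2, MSI2 and LRFN2, against 0.355 over the list. With the 1452 top-scoring peaks of each list it had 0.227, 0.377 and 0.323, against 0.0497. Fewer peaks enter both by construction. The values of LSD1 at day 3, which chose the windows, stayed above those of its list. With the 1452 top-scoring peaks they rest on very few peaks per window and no interval was computed, so an excess there is not shown. For day 0, the 1452 top-scoring peaks left 0 at AUTS2 and MSI2 in knockdown cells, against 0.0496. In control cells they left 0.152 at AUTS2 and 0 at MSI2, against 0.0495. At so low a density a stretch as short as MSI2 can hold none with or without an excess. The setting therefore cannot decide if the day 0 excess of MSI2 holds among the peaks with the highest scores. With the upper 50%, AUTS2 had a median spacing of 40.0 kb and 106.5 tags, and the share of LSD1 peaks of day 3 on LSD1+8a was 4.55%, against 6.59% over the list. With the lowest SVIL score, added after the data were seen, that share was 4.76%, against 5.32%, so its place above the list turned. The cause was not tested. With a 50% reciprocal overlap the share of day 3 peaks on day 0 was 25.9%, against 33.6%, and on SVIL 0%, against 0.120%, as SVIL peaks are shorter. Of 231 alternatives to the other 50 results, 205 stayed and 26 moved, 24 of them down. No paired analysis was possible because each group is 1 library, and none could be left out. Unknown depth limits every count of peaks and tags, and an unlisted peak is not shown to be unbound.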

Other observations

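Stretches as long as each window, laid on a fixed grid over the rest of the genome, held similar numbers of peaks in places. The windows were picked and the grid was not, so these are values without a test. None of 2287 stretches as long as AUTS2 had 45 LSD1 peaks at day 3, and the fullest had 42. For control cells at day 0, 92 of them held at least the 21 peaks of AUTS2. Of 5720 stretches as long as MSI2, 1 had at least 26 LSD1 peaks at day 3, 5 had at least 8 LSD1+8a peaks, and 10 had at least 21 LSD1 peaks in control cells at day 0. Of 9789 stretches as long as LRFN2, 131 had at least 10 LSD1 peaks at day 3.

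By the sum of absolute differences in peaks per 100 kb over the 5 lists, the stretches most like AUTS2 were chr5:124080001-125400000 (1.36), chr11:77880001-79200000 (1.52) and chr4:174240001-175560000 (1.52). The first held 1 SVIL, no LSD1+8a and 42 LSD1 peaks at day 3, and 12 knockdown and 24 control LSD1 peaks at day 0. Most like MSI2 were chr6:27560001-28090000 (3.02), chr5:168010001-168540000 (3.58) and chr1:162710001-163240000 (3.77). Most like LRFN2 were chr1:231880001-232190000 (0.645), chr15:82150001-82460000 (0.968) and chr10:30070001-30380000 (1.29). The first of these held 1 SVIL, 1 LSD1+8a and 10 LSD1 peaks at day 3, and 0 knockdown and 2 control LSD1 peaks at day 0.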
